A study of Mus musculus with 4 samples.

Results

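Sterol and fatty acid metabolism was followed in mouse pancreatic islet cells through 8 genes, chosen by name from the 32227 genes listed in each count matrix. They were Hmgcs1, Sqle, Insig1 and Idi1 for sterols, Acly, Fasn and Scd2 for fatty acid synthesis, and Cpt1a for fatty acid oxidation. All 8 were listed. The choice uses no threshold on their values, but it was made with earlier results of these data known. The islets came from Myt3IM/IM mice, a CRISPR-derived line with a 12-bp insertion in an upstream open reading frame of Myt3 (St18), a transcription factor gene, and from control mice. Islets of 2 males and 2 females were pooled in each droplet single-cell library, and controls and mutants came from intercrosses of the outcrossed line. Sources differ on the outcross, with C57Bl/6j mice given in one place and CBA/BL6j mice in another. The labels give adult mice, normal diet and PIPseq, whereas the methods give high-fat diet and inDrop-Seq. UMI matrices were used for 3 libraries (mutant 1, mutant 2, control 2); control 1 was not analysed here.

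The library labelled control 2 stood apart before any gene was considered. The 3 libraries held 8448466, 9013499 and 36985253 unique molecular identifiers (UMIs, each marking a captured transcript), and 2940, 2040 and 2283 cells were kept. The median cell of control 2 had 5.79 times the UMIs of that of mutant 1 and 3.65 times those of mutant 2. Its label also carries a batch entry of its own, so genotype, depth and batch cannot be told apart. No cell barcode was shared by any pair of libraries (0 in each), and the sums of mutant 1 and mutant 2 β cells differed by more than sampling noise (chi-square per degree of freedom 4.13). The insertion cannot be read in counts per gene, so the labels were not checked by it.

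Cholesterol and fatty acids are both built from cytosolic acetyl-CoA. ATP citrate lyase (Acly) makes this acetyl-CoA from citrate exported by mitochondria. Hmgcs1 makes HMG-CoA from it, Idi1 interconverts the isoprene units further along, and Sqle oxidizes squalene in a late, rate-limiting reaction of sterol synthesis. Insig1 is an endoplasmic reticulum protein that holds the SCAP-SREBP complex back when sterols are plentiful, and it is itself a target of SREBP transcription factors. Fatty acid synthase (Fasn) builds palmitate, and stearoyl-CoA desaturase 2 (Scd2) introduces a double bond into the product. Cpt1a acts in the opposite direction and admits long-chain fatty acids into mitochondria for oxidation. β cells are known to export citrate from mitochondria as part of their metabolic response to glucose.

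The proximal promoters of 4 of these genes are shown, Hmgcs1 and Insig1 from the sterol genes and Acly and Fasn from the fatty acid branch. Each run holds the 250 bases upstream of the RefSeq start site in GRCm38.p6, read in the direction of transcription. Capitals mark matches on either strand to a sterol element core (TCACNCCAC), CCAAT, an E-box (CACGTG) or a GC box (GGGCGG). The Hmgcs1 run lies at chr13:119690101-119690350 on the plus strand, that of Insig1 at chr5:28071162-28071411 on the plus strand, that of Acly at chr11:100528001-100528250 on the minus strand and that of Fasn at chr11:120824548-120824797 on the minus strand.
Hmgcs1: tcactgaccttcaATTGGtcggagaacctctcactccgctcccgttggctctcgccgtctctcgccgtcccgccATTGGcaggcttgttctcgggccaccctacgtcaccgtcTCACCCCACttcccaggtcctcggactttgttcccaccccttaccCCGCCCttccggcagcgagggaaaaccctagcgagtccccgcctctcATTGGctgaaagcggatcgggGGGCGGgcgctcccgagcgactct
Insig1: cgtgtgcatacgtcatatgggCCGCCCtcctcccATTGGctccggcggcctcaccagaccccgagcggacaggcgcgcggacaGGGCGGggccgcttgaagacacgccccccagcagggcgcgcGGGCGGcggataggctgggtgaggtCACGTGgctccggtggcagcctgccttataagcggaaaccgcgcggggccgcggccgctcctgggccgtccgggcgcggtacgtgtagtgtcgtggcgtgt
Acly: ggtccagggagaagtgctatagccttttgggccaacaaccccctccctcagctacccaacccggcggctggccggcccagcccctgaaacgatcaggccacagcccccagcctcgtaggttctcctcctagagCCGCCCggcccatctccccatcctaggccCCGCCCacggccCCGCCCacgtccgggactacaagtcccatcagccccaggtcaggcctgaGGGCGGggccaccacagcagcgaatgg
Fasn: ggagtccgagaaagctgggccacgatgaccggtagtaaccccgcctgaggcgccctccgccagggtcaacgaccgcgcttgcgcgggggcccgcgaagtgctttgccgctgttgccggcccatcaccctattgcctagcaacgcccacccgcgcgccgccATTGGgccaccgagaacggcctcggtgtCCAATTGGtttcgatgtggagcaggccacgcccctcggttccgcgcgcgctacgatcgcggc

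RefSeq windows, which run from 250 bases before to 50 after a start site, were matched by symbol for 6 of the 8 genes. No window was matched for Sqle or Scd2. Of all 32817 windows, 1.24% held the sterol element core, and among the 6 genes it was found in Hmgcs1 alone. CCAAT was in 37.4% of all windows, in each of the 6 genes and in 14 of the 15 cholesterol synthesis genes that had a window. In Acly its match lies after the start site and is not printed. The E-box was in 7.15% of all windows and in Insig1 alone among the 6, and the GC box in 35.6% and in 5 of the 6. These letter matches describe the sequences and are not evidence of binding.

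Islet cells were classed by the share of their UMIs taken by hormones. A β cell had at least 20% insulin UMIs (Ins1 and Ins2), an α cell at least 5% glucagon (Gcg) and a PP cell at least 5% pancreatic polypeptide (Ppy), and the class hormone had to reach at least 2 times every other. Cells below these minimums were called endothelial from a marker list. The rule gave 2183, 1519 and 2011 β cells in mutant 1, mutant 2 and control 2, then 250, 193 and 29 α cells, 46, 31 and 19 PP cells, and 37, 32 and 36 endothelial cells. The same minimum for somatostatin gave 5, 9 and 16 δ cells, so after this was seen δ cells were taken at 1% somatostatin with under 10% insulin, which gave 93, 76 and 34. G6pc2, a β-cell phosphatase that was not used in the rule, was at 612 to 768 CPM (counts per total UMIs, scaled to 1e6) in β sums and at 83.4 to 130 CPM in α sums. In β sums, G6pc2 and Pcsk1 were highest in control 2. Other β-cell genes were higher in the mutant libraries. Mafa was at 1586, 1453 and 240 CPM in β sums of mutant 1, mutant 2 and control 2. In that order, Slc2a2 was at 170, 177 and 58.6 CPM and Nkx6-1 at 954, 898 and 327 CPM. The paper reports lower transcript levels of these genes in mutant β cells, the opposite direction. The reason for this difference was not tested. Cells that carried comparable amounts of a pair of hormones stayed unclassed, and no doublet caller was run. Insulin UMIs were also present in the other classes, at 5.12 to 12.7% of the β-cell share. The class rules limit the insulin share in those classes, so it is not an independent measure of free RNA.

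The β, α, δ, PP and endothelial classes were ranked by mean TMM-scaled CPM. Of the 7 sterol and fatty acid synthesis genes, 5 were highest in β cells (Sqle, Insig1, Idi1, Acly and Scd2). Hmgcs1 and Fasn were highest in PP cells and Cpt1a in endothelial cells. The order depended on the scaling. Unscaled, Acly was at 2332, 2241 and 1427 CPM in δ cells of mutant 1, mutant 2 and control 2. In β cells it was at 2340, 2212 and 1004 CPM. Scd2 was at 80.1, 114 and 66.6 CPM in δ and 98.2, 89.3 and 32.3 CPM in β cells. Idi1 was at 8.02, 7.84 and 13.9 CPM in α cells (4, 5 and 3 UMIs) and 6.58, 8.61 and 7.75 CPM in β cells. Stellate cells (9, 7 and 18) and leukocytes (16, 14 and 12) were too few to be ranked or tested. UMIs were summed per library and class, and edgeR's quasi-likelihood test compared each class with β cells with library as a block (n = 3 libraries). Against β cells, 19% of 6503 tested genes were lower and 9.17% higher in α cells, and 35.1% were lower and 19% higher in endothelial cells. With δ and PP cells added to the fit, 18.5% of 6682 genes were lower and 5.3% higher in δ cells, and 16.8% were lower and 4.25% higher in PP cells. Insulin takes a large part of β-cell UMIs, so the scaling matters. Under TMM the median gene lay at -0.18 (α), -0.40 (endothelial), -0.34 (δ) and -0.37 (PP) on the log2 scale, and under CPM of all UMIs at 0.57, 0.99, 0.91 and 0.48. Changes relative to that median are given beside the fitted changes. Among the members, the relative change that moved most between the scalings was that of Scd2 in endothelial cells, from -0.46 to -0.58. Subtracting the median removes most of the shift between scalings by construction, so this closeness does not show which scaling is right.

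**Figure D1:**
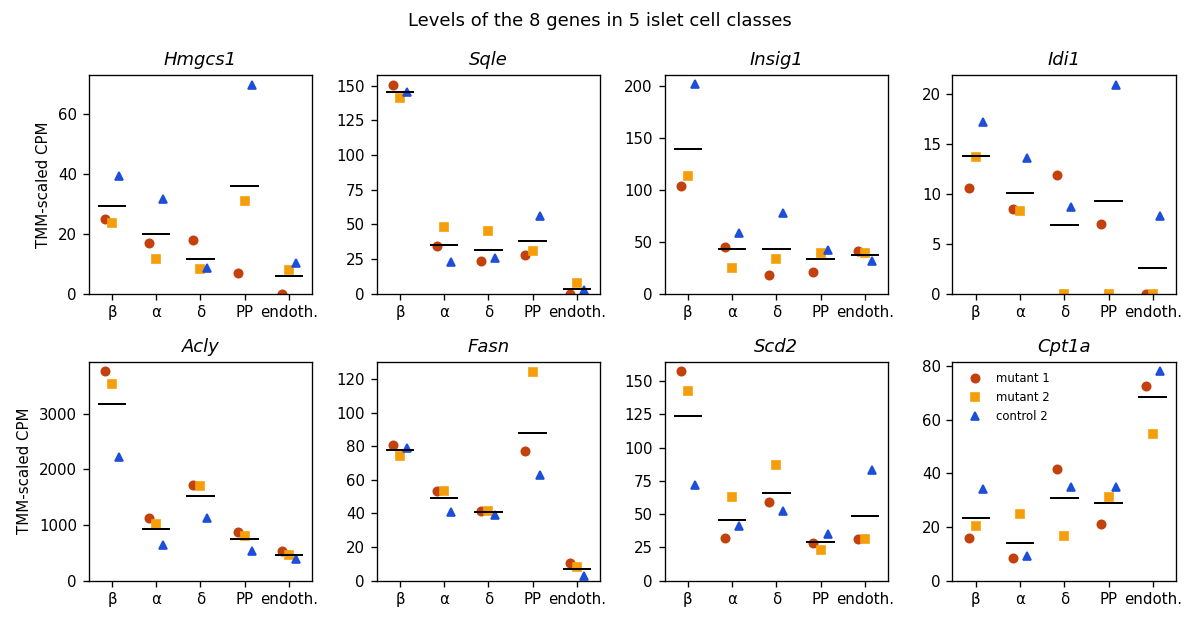
Each panel plots 1 gene; the vertical axis is its level in TMM-scaled CPM (linear, from 0), the horizontal axis the cell class, points are the 3 libraries and black bars their means. Sqle in β cells sat between 141 and 150 CPM, above every library of the other classes, whereas Cpt1a was highest of these 5 classes in endothelial cells, at 54.4 to 78.1 CPM.

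Among the sterol genes, Sqle marked β cells most evenly. Its level in β cells was 150, 141 and 146 CPM (TMM-scaled over the 5 classes) in mutant 1, mutant 2 and control 2, against 34.1, 48.1 and 22.6 CPM in α cells. The groups did not overlap, and neither did those of β and PP cells, in which Sqle was at 27.9, 31.1 and 55.7 CPM. Sqle was lower than in β cells by -1.98 on the log2 scale in α cells (relative to the median gene -1.79, edgeR adjusted p = 1.15e-05), by -2.17 in δ cells (relative -1.83, adjusted p = 1.69e-06) and by -1.92 in PP cells (relative -1.55, adjusted p = 6.76e-05). In the fit of β, α and endothelial cells, Sqle passed the 20 CPM minimum only through its β sums, which favours a lower α value. In endothelial cells Sqle was almost undetected, with 0, 1 and 1 UMIs in the 3 libraries. Unscaled, the β-cell level in control 2 was 20.8 times the endothelial level, with an exact 95% counting interval of 3.73 to 823. In mutant 2 it was 7.60 times (1.36 to 300), and in mutant 1 the lower limit was 1.65.

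Insig1, the sterol-regulated retention protein, was also highest in β cells, with more spread between libraries than Sqle. The order below β cells differed, with PP cells lowest for Insig1 and second for Sqle, though the α, δ and PP levels overlapped for both genes. It was at 104, 113 and 202 CPM in β cells and at 44.7, 24.9 and 58.7 CPM in α cells. Every β sum exceeded every sum of the other 4 classes, which ranged from 17.8 to 78.2 CPM. The log2 change was -1.72 in α cells (relative -1.54, adjusted p = 7.6e-05), -1.67 in δ cells (relative -1.33, adjusted p = 6.94e-05) and -2.04 in PP cells (relative -1.67, adjusted p = 7.85e-05). In endothelial cells it was -2.14 (relative -1.74, adjusted p = 3.35e-05). The endothelial call was lost under CPM of all UMIs, where the change was -0.80 (adjusted p = 0.0757), and so was that of δ cells (-0.41, adjusted p = 0.311).

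Hmgcs1 and Idi1 were too low for the 20 CPM minimum of the α and endothelial fit. Hmgcs1 was at 25.01, 23.7 and 39.3 CPM in β cells, at 17.0, 11.6 and 31.6 CPM in α cells and at 6.98, 31.1 and 69.6 CPM in PP cells. Its levels overlapped between neighbouring classes throughout the order PP, β, α, δ and endothelial. It passed the minimum in the fit with δ and PP cells, where its δ change of -1.43 did not pass the test (adjusted p = 0.0565), nor did its PP change of 0.24. Idi1 was at 10.6, 13.7 and 17.2 CPM in β cells, and its highest sum in any other class was 20.9 CPM (PP, control 2, 3 UMIs). With at most 5 Idi1 UMIs in any non-β sum, a difference between classes was not detectable at this depth.

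Acly was the member with the most UMIs, and its level differed between β, α and endothelial cells in every library. In mutant 1, mutant 2 and control 2 it was at 3764, 3529 and 2225 CPM in β cells, 1122, 1014 and 642 CPM in α cells, and 529, 459 and 385 CPM in endothelial cells. The classes did not overlap. Within a library, the α change against β cells was nearly the same 3 times, at -1.78 ± 0.03 (SD, n = 3). The fitted log2 change was -1.78 in α cells (relative -1.59, adjusted p = 9.81e-07), -2.09 in PP cells (relative -1.72, adjusted p = 1.89e-11) and -2.75 in endothelial cells (relative -2.35, adjusted p = 1.07e-09). δ cells lay closest to β cells, at 1725, 1701 and 1116 CPM, with a change of -1.06 (relative -0.72, adjusted p = 6.33e-06). Under CPM of all UMIs the δ change reversed to 0.17 and was not called (adjusted p = 0.43). Unscaled, Acly in endothelial cells was at 31.0 to 46.5% of its β-cell level. Insulin there was at 7.41 to 9.83%, a share that the class rule limits, and the part of free RNA was not tested.

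Fasn differed from Acly in its class pattern. It was at 80.9, 73.9 and 79.1 CPM in β cells, 53.2, 53.1 and 40.7 CPM in α cells, and 76.8, 124 and 62.6 CPM in PP cells. β and α levels did not overlap, but β and PP levels did. The α change was -0.64 and missed the threshold (relative -0.46, adjusted p = 0.0626), the PP change was 0.15 (relative 0.52, adjusted p = 0.776) and the δ change was -0.95 (relative -0.61, adjusted p = 0.0221). The δ call was lost without any 1 of the libraries, with adjusted p from 0.0733 to 0.165. Under CPM of all UMIs the α and δ changes turned to 0.09 and 0.28, neither of them called, and the PP change was 1.002 and was called (adjusted p = 0.0168). Endothelial sums held 1 Fasn UMI in each library. Unscaled, the β-cell level in control 2 was 11.3 times the endothelial level (exact 95% counting interval 2.03 to 447). In mutant 1 and mutant 2 it was 3.29 times (0.587 to 130) and 3.99 times (0.711 to 158).

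Scd2 varied with the library as well as with the class. It was at 158, 142 and 71.7 CPM in β cells, 31.9, 63.1 and 40.7 CPM in α cells, 27.9, 23.3 and 34.8 CPM in PP cells, and 31.1, 31.1 and 83.3 CPM in endothelial cells. In the mutant libraries β cells exceeded the other classes, while in control 2 the endothelial level was the highest of these 5 classes. Unscaled, Scd2 in control 2 was at 101 CPM in endothelial cells and at 262 CPM in the 18 stellate cells (19 UMIs, exact 95% interval 157 to 408). The change against β cells was -1.42 in α cells (relative -1.24, adjusted p = 0.00355), -2.05 in PP cells (relative -1.68, adjusted p = 0.000714) and -0.86 in δ cells (relative -0.52, adjusted p = 0.0486). Under CPM of all UMIs the PP call was lost (-1.22, adjusted p = 0.0709) and the δ change reversed to 0.34. The α call was lost without mutant 1 (-0.98, adjusted p = 0.149) and under CPM of all UMIs (-0.71, adjusted p = 0.142), and the δ call without mutant 1 (adjusted p = 0.456) or without mutant 2 (adjusted p = 0.153). The endothelial change of -0.86 was not called (adjusted p = 0.0675) but reached -2.26 without control 2 (adjusted p = 9.13e-07), and it was 0.42 under CPM of all UMIs. Scd1, the desaturase of liver and fat, was nearly absent from β cells, with 5, 9 and 5 UMIs.

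Cpt1a ran opposite to the synthesis genes. It was at 15.8, 20.2 and 34.0 CPM in β cells and at 72.6, 54.4 and 78.1 CPM in endothelial cells, without overlap. The endothelial change was 1.49 (relative 1.89, adjusted p = 0.00229). The gene passed the 20 CPM minimum through the endothelial sums, which favours such a difference, and with every cell thinned to 1000 UMIs the change was 0.86 and was not called (adjusted p = 0.349). Unscaled, stellate cells were at 431 CPM in mutant 1 (5 UMIs) and 96.4 CPM in control 2 (7 UMIs), against 107 and 94.7 CPM in endothelial cells, and leukocytes at 153 CPM in mutant 2 (4 UMIs) against 81.3 CPM. The endothelial level is therefore not ranked against those classes. The test did not separate Cpt1a from its β-cell level in α cells (-0.47, adjusted p = 0.432), δ cells (0.36, adjusted p = 0.602) or PP cells (0.32, adjusted p = 0.711). Under CPM of all UMIs the α change was 0.26 and the δ change was 1.62 and was called (adjusted p = 0.00398).

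The wider pathways were counted on lists of 20 cholesterol synthesis genes, 18 of sterol sensing, uptake and export, 20 of fatty acid synthesis and desaturation, 23 of fatty acid oxidation and 21 of fatty acid activation, triglycerides and lipid droplets. In α cells, 2 of 5 tested cholesterol synthesis genes were lower (Sqle, and the sterol demethylation enzyme Msmo1 at -1.66) and 0 higher. Of 14 tested fatty acid synthesis genes, 6 were lower and 0 higher, among them Mlxipl (ChREBP, the glucose-responsive transcription factor) at -2.57 and the elongase Elovl5 (adjusted p = 6.15e-05). Mlxipl was at 236, 250 and 207 CPM in β cells and at 52.3, 37.8 and 28.8 CPM in α cells (scaled over β, α and endothelial sums). Of 12 tested sterol sensing and transport genes, 5 were lower, including Insig1, Soat1 (-2.01) and Abca1 (-1.48), and 1 was higher. Fatty acid oxidation was represented by 1 lower gene of 15, Hadh (-3.75), a mitochondrial dehydrogenase known to restrain insulin secretion. In the last list 2 of 11 were lower (Agpat1 and Lpin1) and 1 was higher (Lpin2, 1.39). The list medians were -0.59, -0.50, -0.61, -0.33 and 0.31, beside -0.18 for all genes tested. Over all genes 19% were lower and 9.17% higher in α cells. The oxidation and last lists, at 1 of 15 and 2 of 11 lower, lay at or under that background. The 20 CPM minimum is a mean over sums that include β cells, which favours genes high there. Sqle and Hadh passed it only through their β sums, so the counts of lower genes are no support for the lists as a whole.

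In endothelial cells, called cholesterol synthesis genes were all lower and most called storage genes were higher. Of the 5 tested cholesterol synthesis genes 5 were lower than in β cells, among them Fdft1 (squalene synthase) at -2.22 and Msmo1 at -1.65. The list median was -2.22 beside -0.40 for all genes. The 20 CPM minimum favours genes high in β cells, and Sqle passed it only through its β sums. This count is therefore no support for the list as a whole. In fatty acid synthesis 8 of 14 were lower and 1 higher, with Mlxipl at -3.38 and the citrate carrier Slc25a1 at -2.24. Of 11 tested genes of fatty acid activation and storage, 7 were higher and 3 lower. The largest were Mgll (monoacylglycerol lipase, 8.05), the fatty acid binding protein Fabp4 (7.44), hormone-sensitive lipase (Lipe, 4.75) and the fatty acid receptor Cd36 (3.67), genes that are well known in capillary endothelium. These 4 were at 1.89 to 23.0 CPM in β sums and passed the 20 CPM minimum through the endothelial sums, so the count of higher genes is no support for the list as a whole. Of 15 oxidation genes 4 were lower and 1 was higher, Cpt1a, with the same limit and not called after thinning. The lower genes included Hadh (-2.26) and Etfb (-1.40), and Hadh passed the minimum only through its β sums. Among 12 sterol sensing genes 3 were lower, among them Insig1 and Abca1 (-1.64), and 1 higher, the lysosomal lipase gene Lipa (2.96). Lipa was at 5.33 to 9.30 CPM in β sums and at 18.9 to 92.4 CPM in endothelial sums. Its call has the limit given for Mgll. Over all genes 35.1% were lower and 19% higher in endothelial cells. The oxidation and sterol sensing lists, at 4 of 15 and 3 of 12 lower, lay under that background.

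In δ cells 2 of 6, 5 of 11, 6 of 15, 2 of 16 and 2 of 12 tested genes of the 5 lists were lower and 0 higher, and in PP cells the counts were the same. The 20 CPM minimum of this fit also included β sums, which favours genes lower than in β cells. Over all genes 18.5% were lower in δ and 16.8% in PP cells, so the oxidation and storage lists, at 2 of 16 and 2 of 12, lay at or under that background. The list medians were -1.12, -1.06, -0.45, -0.14 and -0.32 in δ cells (all genes -0.34) and -0.73, -1.36, -0.41, -0.39 and -0.45 in PP cells (all genes -0.37). Under CPM of all UMIs the lower genes in δ cells fell from 1234 to 124. The lower genes included Msmo1 (δ -1.89, PP -1.63), Abcg1 (δ -1.35, PP -2.69), Hadh (δ -1.05, PP -2.92) and Etfb (δ -1.15, PP -1.35). Elovl1, Acaca, Mylip and Acsl5 were also lower in δ cells, and Acss2, Lpin1, Srebf1 (-1.75) and Abca1 (-1.42) in PP cells, while Agpat1 was lower in both (-0.97 and -0.87). Mlxipl was close to absent from PP sums (27.9, 31.1 and 20.9 CPM, change -3.28, adjusted p = 4.13e-08) and changed less in δ cells (-0.86, adjusted p = 0.0109). Srebf2, the main regulator of sterol synthesis, was not called in any class, with changes between -0.50 and -0.28.

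Across the 9 sums of the 3 libraries and the β, α and endothelial classes, the log2 levels of Hmgcs1 and Sqle had a Pearson r of 0.88, those of Acly and Fasn 0.84 and those of Acly and Sqle 0.82. Fasn and Cpt1a had r = -0.75, and Scd2 and Cpt1a -0.08. These points share libraries and class composition, so r is given only as a description. Of 3031 genes outside the lists, those closest to the mean of the 4 sterol genes were Coa3, Tspan5, Atp6v0d1, Glis3 and Insm1 (r = 0.98 to 0.99). Fam102a, Tmem242, Atp6v0b, Chic1 and Zfhx2 were closest to the mean of Acly, Fasn and Scd2 (r = 0.98 to 0.99), and Tagln2, Clic5, Map1lc3b, Ldha and Ppm1a to Cpt1a (r = 0.94 to 0.95). Glis3 and Insm1 are transcription factor genes of islet endocrine cells.

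In β cells, the mutant libraries and control 2 were compared gene by gene, and sterol and fatty acid genes did not move as a block. Acly and Scd2 were higher in both mutant libraries, Insig1, Hmgcs1, Idi1 and Cpt1a were lower, and Sqle and Fasn lay at the median gene. Hmgcs1, Idi1 and Cpt1a were below the 20 CPM minimum, and Hmgcs1 did not stay lower in β cells of similar depth, where its control UMIs were few. Each value is the log2 ratio of TMM-scaled CPM (set within β sums) to control 2, with a prior count of 1. The median of 4740 genes at 20 CPM or more was -0.20 for mutant 1 and -0.22 for mutant 2, and relative ratios are given against it. Of these genes, 32.4% had both ratios under -0.5 and 14.3% over 0.5, and after the median was subtracted the shares were 23.5% and 21.7%. Large differences from control 2 were common among the genes tested, and a member past 0.5 was not unusual. Both ratios share the 1 control library, so they carry no replicate check on the control side and are given as a description.

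**Figure D2:**
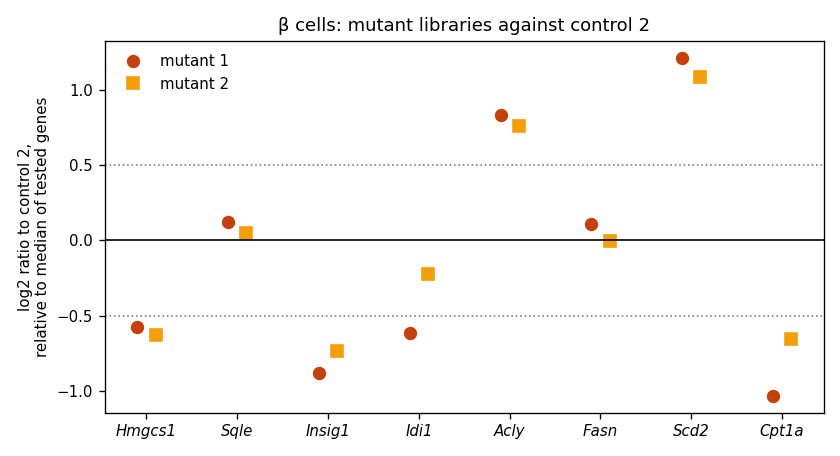
The vertical axis is the log2 ratio of each mutant library to control 2 in β cells minus the median of 4740 genes (solid line at 0; dotted lines at 0.5 and -0.5), and the horizontal axis lists the 8 genes. In both mutant libraries (circles, mutant 1, squares, mutant 2), Acly and Scd2 lie above 0.5 and Hmgcs1, Insig1 and Cpt1a below -0.5. The libraries lie furthest apart for Idi1 (-0.62 and -0.22) and Cpt1a (-1.03 and -0.65).

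Acly was at 2052 CPM in mutant 1 (16706 UMIs) and 1919 CPM in mutant 2 (16949 UMIs), against 1319 CPM in control 2 (35495 UMIs). Both mutant libraries were higher, with relative ratios of 0.83 and 0.76. At 1000 UMIs per cell, 88.9% and 87.4% of β cells of the mutant libraries held an Acly UMI, against 61.1% in control 2 (exact 95% interval 58.9 to 63.3%). In endothelial cells the same shares were 44.4, 45.2 and 47.2%, from 27 to 36 cells. The median β cell had 2888, 4610 and 16287 UMIs before thinning, and the unthinned shares were 95.6, 97.7 and 97.9%. Thinned shares are out of all UMIs, insulin included, without TMM scaling, so they are not on the scale of the CPM beside them.

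Scd2 was at 86.1, 77.5 and 42.5 CPM in mutant 1, mutant 2 and control 2, from 701, 684 and 1143 UMIs. Its relative ratios of 1.21 and 1.09 were the highest of the 8 genes, and 93.6% of tested genes had a lower mean relative ratio. The share of thinned β cells with a UMI was 8.92, 8.48 and 3.93%. Fasn, in the same pathway, was at 44.1, 40.2 and 46.9 CPM, with relative ratios of 0.11 and -0.0013. Its counting intervals overlapped between mutant 1 (39.6 to 48.9 CPM) and control 2 (44.4 to 49.6 CPM).

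Insig1 was at 56.6 CPM in mutant 1 (461 UMIs), 61.6 CPM in mutant 2 (544 UMIs) and 119.5 CPM in control 2 (3216 UMIs). Both mutant libraries were lower, by relative ratios of -0.88 and -0.73, and a UMI was found in 5.58, 6.06 and 9.40% of thinned β cells. Sqle, in contrast, was at 81.9, 76.5 and 86.4 CPM, with relative ratios of 0.12 and 0.05. A Sqle UMI was found in 9.81, 8.55 and 7.01% of thinned β cells. These shares are not TMM-scaled and ran opposite to the scaled CPM. Unscaled, Sqle was at 93.4, 88.2 and 65.7 CPM. Hmgcs1 was at 13.6, 12.9 and 23.3 CPM and Idi1 at 5.77, 7.47 and 10.2 CPM, and neither reached a mean of 20 CPM. Their relative ratios were -0.58 and -0.63 (Hmgcs1), and -0.62 and -0.22 (Idi1, 47 and 66 UMIs in the mutant libraries).

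Cpt1a, also below the minimum, was at 8.60 CPM in mutant 1 (70 UMIs), 10.98 CPM in mutant 2 (97 UMIs) and 20.2 CPM in control 2 (543 UMIs). The relative ratios were -1.03 and -0.65, a gap of 0.35 between the mutant libraries. Among the transcription factors, Srebf1 had relative ratios of -0.21 and 0.02, Srebf2 of -0.19 and 0.02 and Mlxipl of 0.26 and 0.37. Nr1h3 (LXRα) was at -0.49 and -0.32, Nr1h2 at -0.46 and -0.18, and Ppara, with 21 to 57 UMIs, at 0.77 and 0.38.

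In β cells of similar depth the mean relative ratio kept its side for 7 of the 8 genes, though Fasn had no common side over all depths (0.11 and -0.0013). In cells of 3000 to 6000 UMIs (832, 624 and 271 β cells) the mean relative ratio was 0.90 for Acly, 1.38 for Scd2, -0.54 for Insig1, -1.14 for Cpt1a, -0.99 for Idi1, 0.12 for Sqle and 0.19 for Fasn, and for Hmgcs1 it went from -0.60 to 0.06. The 271 control cells are the shallow end of 2011 β cells with a median of 16287 UMIs, and they held 1173385 UMIs. Values of the low genes Hmgcs1, Idi1 and Cpt1a therefore rest on few control UMIs. An edgeR fit of the 2 mutant libraries against the 1 control library, which assumes that the lone control varies like the mutant libraries, called 44% of genes lower and 23.1% higher. With so large a share called, and depth and batch tied to the control, its calls are not used for the members. Insulin took 39.8% and 41.9% of UMIs in the median β cell of the mutant libraries and 55.0% in control 2. The summed α-cell markers in β cells were at 3953, 4258 and 2328 CPM with 0 of 7 at zero. Ttr alone gave 644, 710 and 1967 CPM of these sums. The glucagon share of the median β cell differed far more, at 0.237, 0.286 and 0.012% in mutant 1, mutant 2 and control 2. The part of depth, insulin share and other cells' RNA in these ratios was not tested.

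The pathway lists spread in the same way. Of 6 tested cholesterol synthesis genes, 2 had both ratios under -0.5 and 0 over 0.5. These were Fdps (farnesyl diphosphate synthase), at 9.70, 10.8 and 48.1 CPM with ratios of -2.30 and -2.15, and Pmvk at -0.64 and -0.64. Genes of this list below the 20 CPM minimum lay past 0.5 on both sides, for example Tm7sf2 (1.34 and 1.42) and Ebp (-1.61 and -1.73). The absence of genes over 0.5 therefore holds for the tested genes only. Among 10 sterol sensing and transport genes, 3 were under and 2 over. Of all genes tested 32.4% were under and 14.3% over, so the lower counts of both lists lay near that background. Insig1 (-1.08 and -0.96) and the lysosomal cholesterol carrier Npc2 (-0.92 and -0.81) were among the lower genes, whereas the cholesterol esterifying enzyme Soat1 (0.95 and 0.96) was among the higher.

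Fatty acid synthesis was divided as well, with 2 of 12 genes under -0.5 and 2 over 0.5. Hsd17b12, a ketoacyl reductase of the elongation cycle, had ratios of -1.62 and -1.35, and the citrate carrier Slc25a1 had -0.59 and -0.84. Acly (0.64 and 0.54) and Scd2 (1.02 and 0.87) were the higher genes. In fatty acid oxidation 3 of 8 were under and 0 over, namely Hadh (-1.47 and -1.13), Etfb (-1.43 and -1.31) and Eci2 (-0.62 and -0.53). Of 5 tested genes of activation and storage 1 was under, Lpin2 (-1.28 and -1.17), and 2 were over, Agpat1 (1.03 and 0.75) and Agpat2 (0.99 and 0.92). The list medians, relative to the median gene, were -0.22 and -0.01 for cholesterol synthesis, -0.20 and 0.02 for sterol sensing, 0.13 and 0.14 for fatty acid synthesis, -0.24 and -0.04 for oxidation, and 0.82 and 0.70 for activation and storage. After the median was subtracted, genes past 0.5 numbered 1 lower and 0 higher, 2 and 3, 1 and 3, 2 and 2, and 1 and 4 in these lists, beside 23.5% lower and 21.7% higher over all genes. Before it, 3 of 8 oxidation genes lay close to the 32.4% of all genes.

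**Figure D3:**
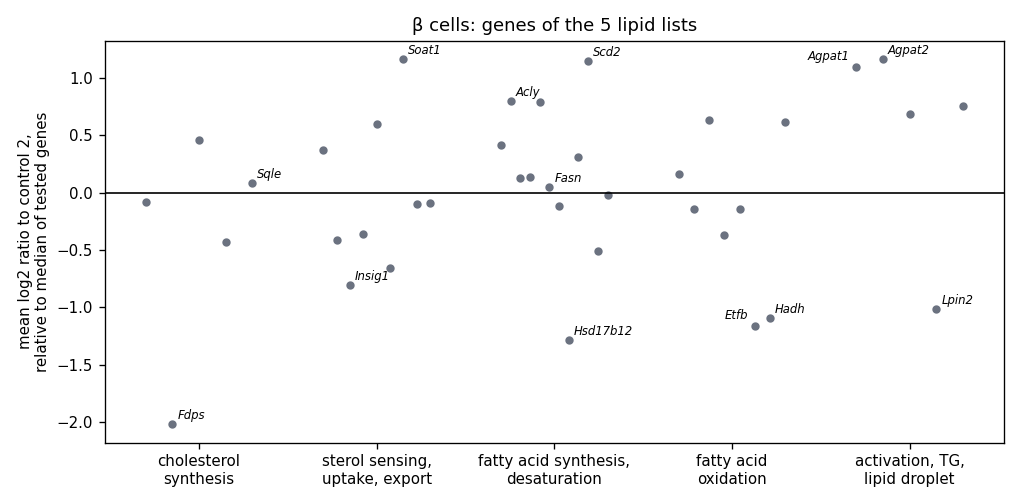
Points are tested genes of each pathway list in β cells; the vertical axis is the mean over both mutant libraries of the log2 ratio to control 2, relative to the median gene (line at 0), and names mark members and genes beyond 1 or -1. Fdps lies lowest at -2.02 and Soat1 highest at 1.17. Among the genes drawn, all lists but cholesterol synthesis have genes both above 0.5 and below -0.5. Genes below the 20 CPM minimum are not drawn.

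In the other classes, Acly was again higher in the mutant libraries. In α cells its relative ratios were 0.68 and 0.52 (527, 611 and 142 UMIs) and in endothelial cells 0.79 and 0.56 (51, 59 and 148 UMIs). Insig1 was lower in α cells (-0.50 and -1.30) from 21, 15 and 13 UMIs. Scd2 was at -0.45 and 0.47 in α cells, on opposite sides in the 2 mutant libraries. Cpt1a and Fasn had fewer than 10 UMIs in at least 1 of the α sums and in at least 1 of the endothelial sums, too few for a direction.

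Whether the genes move together from cell to cell was examined within libraries. Each β cell was thinned to 1000 UMIs, and cells above the library mean of cholesterol synthesis UMIs were compared with cells below it, the genes of that list being left out of the test. The sterol-high groups held 637, 499 and 597 cells and the sterol-low groups 1280, 904 and 1414. Only 0.0612% of 4905 genes were lower and 0.0204% higher in sterol-high cells (edgeR adjusted p under 0.05), and no member was among them. The log2 difference was 0.22 for Insig1 (adjusted p = 0.766), -0.11 for Acly (adjusted p = 0.574), -0.02 for Fasn (adjusted p = 0.991) and -0.05 for Scd2 (adjusted p = 0.965). Between libraries Insig1 ranged from -0.20 to 0.54. The genes called were Ins1 (-0.14), Ins2 (-0.14) and Spidr (-0.16), all lower, and Pigr (1.02), higher, named after their values were seen. At a fixed 1000 UMIs, cells with a smaller insulin share have more room for list UMIs. The split therefore favours lower Ins1 and Ins2 in sterol-high cells. The list gave on average 0.42, 0.45 and 0.37 UMIs per thinned cell, so the split rests on single UMIs and a weak co-variation was not detectable at this depth.

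Control 2 alone was deep enough for a finer split. Its 1386 β cells of at least 10000 UMIs (625 were left out) were thinned to 10000 UMIs and divided at the mean of the list, each sterol synthesis gene being taken out of the list for its own value. Hmgcs1 was at 24.4 CPM in cells with more list UMIs and 14.8 CPM in cells with fewer, a log2 difference of 0.72 (95% counting interval 0.36 to 1.08). Idi1 differed by 0.73 (0.19 to 1.29), Sqle by 0.25 (0.06 to 0.44) and Insig1 by 0.42 (0.26 to 0.57). Among 9934 genes with at least 50 UMIs the median was 0.14, with the 5th percentile at -0.24 and the 95th at 0.54. Hmgcs1 and Idi1 lay above that range and Sqle and Insig1 within it. Genes with as few as 50 UMIs are in that range, so counting error widens it. A place within it is no evidence of an unchanged level. The lower limits of Hmgcs1 and Idi1 were inside the range, which came from the split by the whole list. The deepest split made in the mutant libraries was at 2000 UMIs per cell. Its Hmgcs1 and Idi1 counts were too few to tell whether these libraries differ from control 2. There the Hmgcs1 ratio of sterol-high to sterol-low cells was 0.982 in mutant 1 (27 against 26 UMIs) and 1.07 in mutant 2 (19 against 15 UMIs). For Idi1 the ratio was 0.58 and 0.61 (7 against 11 and 8 against 11 UMIs). The ratio was 1.05 and 1.03 for Sqle and 0.97 and 1.18 for Insig1. In control 2 at 2000 UMIs the ratios were 1.29 (Hmgcs1, 38 against 32 UMIs), 1.31 (Idi1), 1.08 (Sqle) and 1.29 (Insig1). At 1000 UMIs the Hmgcs1 ratio was 1.43, 1.57 and 1.66 in mutant 1, mutant 2 and control 2. Its sterol-high cells then held 13, 10 and 14 Hmgcs1 UMIs. The Idi1 ratio was 0.58, 1.10 and 1.32, from 2, 3 and 7 UMIs in sterol-high cells.

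The fatty acid genes were divided again. Scd2 was at 43.4 CPM in sterol-high cells (270 UMIs) and 26.8 CPM in sterol-low cells (205 UMIs). The difference of 0.69 (0.43 to 0.96) also exceeded the 95th percentile of genes, though its lower limit did not. Acly differed by 0.20 (0.16 to 0.25), Fasn by 0.10 (-0.15 to 0.35) and Cpt1a by 0.10 (-0.30 to 0.49), all near the median gene. Of the cells in the split, 26.0% held an Scd2 UMI and 15.6% an Hmgcs1 UMI, and 74 held both, 1.32 times the 56.1 given by the product of the shares. Over the 28 pairs of members this ratio ran from 0.914 (Hmgcs1 and Fasn) to 1.49 (Hmgcs1 and Idi1). It was 1.43 for Idi1 and Scd2, 1.43 for Hmgcs1 and Cpt1a, 0.928 for Hmgcs1 and Sqle, 0.99 for Sqle and Insig1 and 0.997 for Fasn and Scd2, so high ratios were not particular to Scd2 or to pairs of sterol genes. These are values of 1 library with counting error only, and no test was made. Insulin took 55.6% of UMIs in the median sterol-high cell and 58.9% in the median sterol-low cell, and its part in these differences was not tested.

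**Figure D4:**
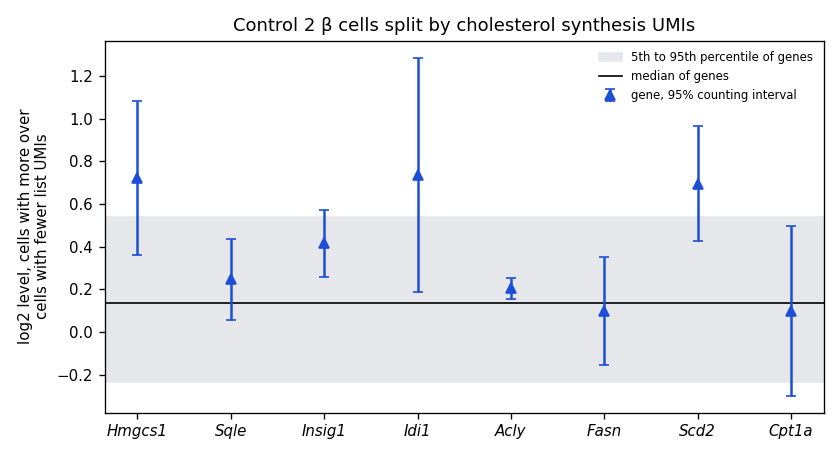
Triangles show, for control 2 β cells at 10000 UMIs, the log2 ratio of each gene's level in cells with more cholesterol synthesis UMIs to that in cells with fewer, with 95% counting intervals; the grey band spans the 5th to 95th percentile of 9934 genes and the line is their median. Hmgcs1, Idi1 and Scd2 lie above the band at 0.72, 0.73 and 0.69, but their lower interval limits fall inside it.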

How the data were processed

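Droplet single-cell libraries of mouse islets were analysed from UMI counts per gene and cell. The authors made these counts with DropEst, and the deposited counts are whole numbers without normalization. GRCm39 and Seurat are named in the submitters' processing notes without a role. Barcodes needed 500 UMIs, 100 genes and a mitochondrial share of no more than 10%. These were summed per library and class and analysed with edgeR 4.0.16 in R 4.3.3 (TMM scaling, quasi-likelihood test, library as a block, Benjamini-Hochberg adjustment over every gene averaging 20 CPM or more). Hormone and marker genes used to class cells were left out of the tests between classes, and cholesterol synthesis genes out of the sterol-high test. The paper describes independent assays of control and mutant samples, without saying how the preparations were separated. Library differences are taken out by the block, so the p-values weigh a difference against how much it varied between libraries. Error intervals (95%, exact, from Poisson or binomial counts) cover counting error only, and those of ratios condition on the sum of both counts. The fits were tested on simulated data. The members and the gene lists were chosen with earlier results of these data known. Besides the members, the genes named were the 4 largest of each list per comparison, 6 transcription factors and the 5 genes most alike in pattern. Tm7sf2 and Ebp, below the 20 CPM minimum, were also named, after their values were seen. The widened δ class, the fit with PP cells and the split of control 2 at 10000 UMIs were added after seeing the data. Python 3.11.15, numpy 2.4.6 and scipy 1.17.1 were used. Some genes of the lists were counted but are not reported here by name or drawn.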

Additional observations from a re-analysis of the deposited data

Results flagged for a closer look

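For 2 genes the ratios of both mutant libraries to control 2 had one sign in β cells and the other in endothelial cells. The difference was not tested, and the endothelial sums of the mutant libraries held 3 to 5 UMIs, too few for a direction. For Insig1 the relative log2 ratios were -0.88 and -0.73 in β cells and 0.68 and 0.57 in endothelial cells (4, 5 and 12 UMIs), and the means differed by 1.43. For Scd2 they were 1.21 and 1.09 in β cells and -0.97 and -1.001 in endothelial cells (3, 4 and 32 UMIs), and the means differed by -2.13.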

How the results depend on the processing

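Scaling mattered most for counts over all genes. Under CPM of all UMIs, lower and higher genes against β cells numbered 304 and 2461 in α, 682 and 3561 in endothelial, 124 and 3455 in δ and 211 and 1359 in PP cells, and the δ changes reversed to 0.17 (Acly), 0.28 (Fasn) and 0.34 (Scd2). In α cells DESeq2 called 648 lower, scaling without hormone and mitochondrial genes 905 higher, a minimum of 50 CPM 817 lower and 397 higher, and thinning to 1000 UMIs 355 higher. In endothelial cells the 50 CPM minimum gave 1280 lower and 669 higher, no filter 1940 higher and thinning 714 higher. Leaving out a library gave 573 to 1695 lower and 242 to 1091 higher genes in α, 596 to 1078 and 214 to 493 in δ, and 556 to 1000 and 143 to 368 in PP cells. α cells had no value with the class hormone at 5 times the others, because too few cells were left.

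For β cells against control 2, 568 genes were lower and 1972 higher under CPM of all UMIs (22.4% of those past 0.5 were lower, 69.5% under TMM), 593 and 345 at 50 CPM, 7303 and 4543 with no filter, and 824 and 1287 at 3000 to 6000 UMIs, where Hmgcs1 reversed to 0.0609. That Hmgcs1 value rests on few control UMIs. Higher genes numbered 1619 without hormone and mitochondrial genes, 1045 after thinning and 1096 in the edgeR fit. For sterol-high cells, 0 genes were lower under CPM of all UMIs, without hormone and mitochondrial genes, under DESeq2, at 2000 UMIs and when 4 members chose the cells, and 7 with no filter, and 0 were higher under DESeq2 and at 2000 UMIs. Leave-outs gave 0 to 3 lower and 0 to 1 higher. At an unadjusted p under 0.05, edgeR had 372 genes. The causes were not tested. No paired analysis was possible because the mutant and control libraries with matrices share only 1 replicate number.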
